A study of Homo sapiens with 2 samples.

Results

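Hashtag1 and Hashtag2 are antibody labels carried by a minority of the cells in a pool of 13 labelled preparations of human stem cell-derived cardiomyocytes. They were selected on measured values: fewer of their cells held high levels of contractile genes, and WFDC2, CLDN4, COL3A1 and IRX1 were noted as their marker genes. The comparison of these hashtags with the others is therefore a description, and no test was applied to it. Cells with 20 or more hashtag molecules were given to a hashtag when 70% or more of those molecules were of that one kind. By that rule Hashtag1 had 404 cells and Hashtag2 had 751, together 1155 of the 10319 cells given to any hashtag, and the other 11 hashtags had 452 to 1378 each. Of the 21623 barcodes that passed the filter on cell quality, 11286 had no hashtag at 70% and 18 had too few hashtag molecules, so 47.7% were used.

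All cells, on both sides of the comparison, came from H9, a human embryonic stem cell line, carried the gCaMP6f fluorescent calcium reporter, and are described as cardiomyocytes of day 15 that had been frozen. After thawing in medium with a ROCK inhibitor, each preparation was stained with a hashtag antibody and all were combined in 1 pool, and no other treatment is given. The labels do not say what a hashtag stands for, so differentiation batch, protocol, culture or any treatment may differ between hashtags in ways not known here, and each hashtag is 1 unassigned sample. RNA and hashtag libraries were made from the same pool and share 1 set of 24038 barcodes.

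Directed differentiation of pluripotent stem cells to heart muscle passes through mesoderm and leaves other cells behind, among them epithelial cells joined by cadherins and claudins, collagen-producing stromal cells, and endoderm that makes liver plasma proteins. The Iroquois genes (IRX) encode homeodomain transcription factors that pattern many tissues and, in the developing heart, are linked to the ventricular septum, the trabeculae and the conduction system. They lie in a pair of genomic clusters, one with IRX1, IRX2 and IRX4 and the other with IRX3, IRX5 and IRX6.

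Depth was counted in unique molecular identifiers (UMIs), which stand for single captured RNA molecules. Hashtag1 held 4589333 UMIs and Hashtag2 held 8788156, against 5551197 to 18565769 in the others. The median cell held 10866.5 and 10904 UMIs, inside the other hashtags' 8073 to 16995. Median mitochondrial shares were 3.097% and 2.93%, also inside their 1.78% to 3.37%. In cells past the contractile gate described below, however, Hashtag1 was above the others in mitochondrial share, at 4.24%, with Hashtag2 at 3.49% and the others at 1.80% to 3.51%; whether this bears on the gene levels was not tested. Levels are given in CPM, the usual depth-scaled unit: UMIs of a gene divided by all UMIs of the cells summed, times a fixed factor.

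The promoters of 5 genes on which the description turns are shown for orientation: 3 epithelial genes that were high in the cells without a contractile programme, and 2 Iroquois genes that were high in the contractile cells. Each is the 150 bases before the annotated start in RefSeq (GRCh38.p14), read 5′ to 3′ on the gene's strand. WFDC2 encodes a secreted protease inhibitor of epithelia (chr20:45469603-45469752 on the plus strand), CLDN4 a tight junction protein (chr7:73830846-73830995 on the plus strand) and RAB25 a small GTPase of epithelial vesicle traffic (chr1:156061010-156061159 on the plus strand). IRX1 is shown at chr5:3595682-3595831 on the plus strand and IRX2 at chr5:2751678-2751827 on the minus strand. Capitals mark a match to the E-box CAGGTG on either strand (so also CACCTG) in WFDC2 and RAB25, and to the AP-2 motif GCCNNNGGC in IRX1.
WFDC2: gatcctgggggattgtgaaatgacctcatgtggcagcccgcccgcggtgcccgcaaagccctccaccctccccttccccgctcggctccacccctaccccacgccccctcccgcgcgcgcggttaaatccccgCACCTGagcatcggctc
CLDN4: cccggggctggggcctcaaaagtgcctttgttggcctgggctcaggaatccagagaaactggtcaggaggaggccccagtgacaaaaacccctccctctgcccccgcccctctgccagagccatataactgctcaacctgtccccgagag
RAB25: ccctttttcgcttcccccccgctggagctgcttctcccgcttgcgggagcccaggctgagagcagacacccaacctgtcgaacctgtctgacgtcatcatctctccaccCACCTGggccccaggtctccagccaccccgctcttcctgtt
IRX1: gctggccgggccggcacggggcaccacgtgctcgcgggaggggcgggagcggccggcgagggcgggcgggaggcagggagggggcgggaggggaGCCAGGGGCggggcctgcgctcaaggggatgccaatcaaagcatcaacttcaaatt
IRX2: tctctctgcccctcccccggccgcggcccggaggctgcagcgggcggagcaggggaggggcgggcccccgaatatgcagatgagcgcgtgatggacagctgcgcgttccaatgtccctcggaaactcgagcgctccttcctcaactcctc
Motifs were searched on both strands in windows of 250 bases before to 50 after each start. The E-box was in 5625 of 27305 RefSeq windows, the AP-2 motif in 23.04%, and the grainyhead motif AACCNGTT in 1.729%. Of the 10 genes of the epithelial list, 5 had a window, of which 3 held the E-box, 2 the AP-2 motif and 0 the grainyhead motif. These matches describe the letters only.

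How many cells of each hashtag expressed the contractile programme? A cell was counted as past the cardiomyocyte gate when 7 genes of the contractile apparatus (TNNT2, ACTN2, TTN, TNNC1, MYL4, MYL7 and MYBPC3) summed to at least 20000 CPM in it. In Hashtag1, 131 of 404 cells passed (32.4%, exact 95% interval 27.9% to 37.2%), and in Hashtag2 386 of 751 (51.4%, 47.8% to 55.0%). In the other 11 hashtags the share was 68.7% at the lowest (Hashtag12), 83.6% at the median and 91.2% at the highest (Hashtag14). Both hashtags lay below every other, which restates how they were chosen. Intervals here cover counting error only, and cells of 1 hashtag are not replicates. The share past the gate was 77.7% both in cells given to a hashtag and in those given to none.

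**Figure D1:**
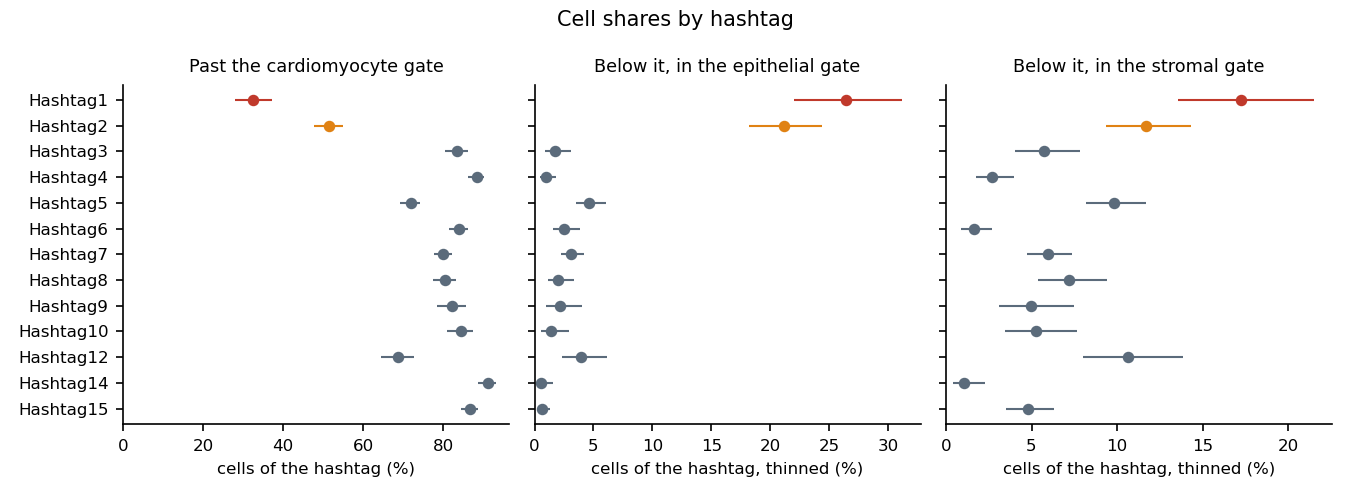
Share of each hashtag's cells past the cardiomyocyte gate (left), and below it and in the epithelial (middle) or stromal (right) marker gate after thinning to 3000 UMIs; the x axes are percent of cells, points are hashtags and bars are exact 95% intervals for counting error. Hashtag1 and Hashtag2 are the lowest on the left, at 32.4% and 51.4%, and the highest in the middle, at 26.4% and 21.2%.

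The difference in these shares lay in cells with almost none of the gate transcripts. Under 5000 CPM of the gate genes were 220 cells of Hashtag1 (54.5%) and 264 of Hashtag2 (35.2%), against 1.61% to 20.8% of the others, median 5.87%. Among cells past the gate, the median summed level was 36140.2 CPM in Hashtag1 and 34686 CPM in Hashtag2, inside the others' 30787 to 42701. Cells close to the threshold, from 15000 to 25000 CPM, were 7.18% and 11.6% of the cells, against 10.5% to 28.3% of the others. Raised to 30000 CPM, the gate kept 23.3% and 35.0% of their cells and a median of 55.0% of the others'.

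**Figure D2:**
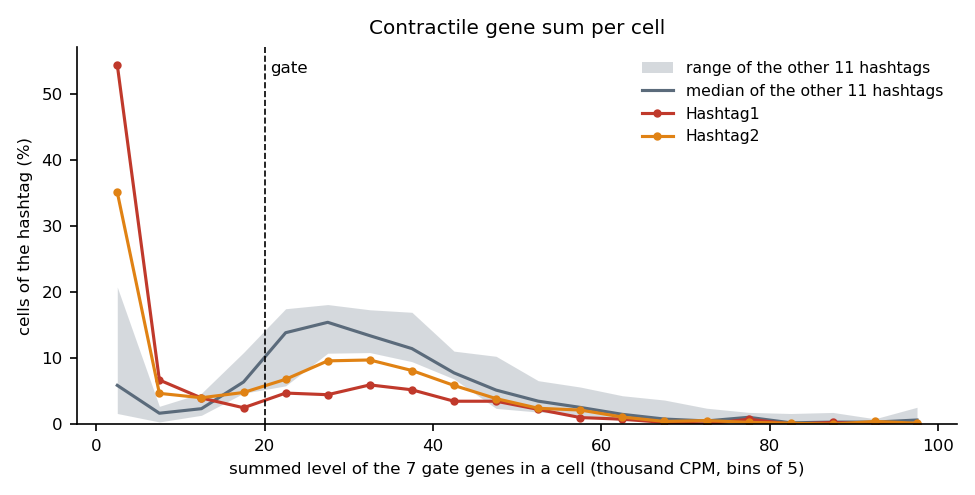
Percent of each hashtag's cells (y axis) by the summed level of the 7 gate genes in bins of 5000 CPM (x axis, in units of 1000 CPM), with Hashtag1 and Hashtag2 as lines, the other 11 as their median and range, and the gate as a dashed line. Hashtag1 and Hashtag2 peak in the lowest bin, at 54.5% and 35.2% of their cells, where the other hashtags reach at most 20.8%.

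Summed over all cells of a hashtag, the contractile genes were low and epithelial genes high in both hashtags, which partly restates how they were chosen. A gene was measured when the mean of Hashtag1 and Hashtag2 or the median of the others reached 10 CPM, and was called above or below the range when both hashtags lay outside all 11 others and the fold between that mean and that median was at least 1.5. Of 9142 measured genes, 991 were called above (10.8%) and 376 below (4.11%). With edgeR's TMM factors in place of totals the calls were 557 and 698, and the median log2 fold over all genes moved from 0.13 to -0.05, so counts of calls in the 2 directions should be read relative to that shift. In sums over all cells, fewer cells of a type and less RNA per cell cannot be told apart.

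All 7 gate genes were below the range in the sums over all cells. This largely restates how the hashtags were chosen, since fewer of their cells held high levels of these genes. The troponin T gene TNNT2 was at 2801 CPM in Hashtag1 and 4565 CPM in Hashtag2, with the others at 5670.1, 7118 and 8040.4 CPM (lowest, median, highest), a 1.93-fold lower mean. MYL7, an atrial-type myosin light chain gene, was at 3797 and 5801 CPM against 6031, 10747 and 18872 CPM, 2.24-fold lower. The creatine kinase gene CKM was at 47.7 and 71.9 CPM against 135, 220 and 242 CPM, 3.67-fold lower. For all 3 genes Hashtag1 was the lowest and Hashtag2 the next lowest of the 13. Of 11 measured cardiac transcription factors, 5 were below the range and 0 above, among them GATA4 (39.2 and 54.2 CPM; lowest other 67.6 CPM). Of the cardiac subtype lists, 0 of 6 ventricular genes were called, 1 of 5 atrial genes lay below and, of 4 pacemaker genes, 1 lay below and 1 above. Those below were TBX5, a T-box factor of atrial and left ventricular muscle, at 15.9 and 24.1 CPM (lowest other 45.5 CPM), and HCN4, the main pacemaker channel gene, at 14.6 and 26.6 CPM (lowest other 37.3 CPM). The one above was ISL1, a LIM-homeodomain gene of cardiac progenitors and the sinus node, at 79.3 and 53.03 CPM against 6.52, 8.51 and 19.4 CPM. ISL1 was measured only through Hashtag1 and Hashtag2, since the others' median lay under the 10 CPM minimum.

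Of the 10 genes of the epithelial list, 9 were measured over all cells and 7 of those were above the range, with 0 below. The 7 include WFDC2 and CLDN4, markers on which the hashtags were noted, so the count is partly built in. CLDN4 was at 66.9 and 80.4 CPM against 0.658, 2.29 and 9.64 CPM in the others, 32.2-fold above their median. WFDC2 was at 204 and 160.4 CPM against 9.98, 13.9 and 40.0 CPM, 13.2-fold. CDH1, which encodes the epithelial adhesion protein E-cadherin, was at 29.9 and 44.7 CPM against 1.05, 2.13 and 7.06 CPM, 17.5-fold. RAB25, EPCAM, GATA3 and ESRP1 were the others called. No sample overlapped between the sides in these 7 genes, as the call requires. CLDN4 and CDH1 were measured only through Hashtag1 and Hashtag2, since all others lay under the 10 CPM minimum. KRT19 (251 and 309 CPM; others 143 to 331 CPM) and CLDN6 (133 and 155 CPM; others 114 to 168 CPM) lay within the range. Both genes were also measured in contractile cells, where CLDN6 was at 119.9 and 108 CPM.

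Among genes outside the lists with 50 CPM or more, the largest fold over all cells was in MIR205HG, the host transcript of an epithelial microRNA, at 106 and 93.8 CPM against 0.233, 2.25 and 7.38 CPM (44.4-fold). The tight junction gene CLDN7 was at 65.8 and 66.6 CPM against 1.80, 3.06 and 13.8 CPM. SOX2, in the neural list, a transcription factor of neural, foregut and other epithelial progenitors and of pluripotent cells, was at 68.9 and 45.9 CPM with the others between 0.117 and 1.91 CPM. The sides did not overlap, as the call requires. LIN28A, an RNA-binding protein gene of early embryonic cells, was at 29.9 and 25.03 CPM against 2.00 to 6.74 CPM. MIR205HG, CLDN7, SOX2 and LIN28A were measured only through Hashtag1 and Hashtag2, since the others' medians lay under the 10 CPM minimum. The pluripotency genes POU5F1 (0 and 1.48 CPM) and NANOG (0.218 and 0.455 CPM) stayed near 0.

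COL3A1 and IRX1, the other pair of noted markers, did not meet the call over all cells. COL3A1, a fibrillar collagen gene, was at 276 and 202 CPM against 34.4, 95.8 and 209 CPM, so Hashtag2 overlapped the highest of the others. Of 8 measured stromal genes, 3 were called above: FOXC1 (35.5 and 35.2 CPM; highest other 7.19 CPM), a forkhead factor of mesenchyme, DCN and POSTN. FOXC1 was measured only through Hashtag1 and Hashtag2, since all others lay under the 10 CPM minimum. IRX1 was at 48.4 and 79.7 CPM against 8.65, 16.2 and 52.4 CPM, and Hashtag1 overlapped.

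Which cells lay below the gate? Hashtag1 had 273 such cells and Hashtag2 365. Each cell was thinned to 3000 UMIs, which left out 812 shallower cells, 33 of Hashtag1 and 66 of Hashtag2 among them. A below-gate cell was then given to a marker gate when it held at least 3 UMIs from at least 2 genes of that list and more than of any other list. Epithelial-gated cells were 98 of 371 in Hashtag1 (26.4%, 22.0% to 31.2%) and 145 of 685 in Hashtag2 (21.2%, 18.2% to 24.4%). The others had 0.531% (Hashtag14), 2.02% (median) and 4.65% (Hashtag5), so that 243 of all 435 gated cells (55.9%, 51.1% to 60.6%) belonged to 2 of the 13 hashtags. Past-gate cells that met the same UMI minimum, which give the level found in cells of another type, were 0.820% in Hashtag1, 5.29% in Hashtag2 and 0.820% to 14.4% over all 13 hashtags. That background was not higher in the 2 hashtags than elsewhere. In the other hashtags alone the background was 5.96% to 14.4% of past-gate cells, where 4.65% to 16.4% of below-gate cells were epithelial-gated. The part of background in the gated shares and in the 55.9% was not tested. Without thinning the epithelial shares were 29.7% and 24.6% against 1.96% to 10.3%, but the background then reached 66.0%.

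Stromal-gated cells were a smaller excess: 17.3% of Hashtag1 (13.5% to 21.5%) and 11.7% of Hashtag2 (9.37% to 14.3%), against 1.06%, 5.27% and 10.7% of the others. The highest of these, Hashtag12, lay within the interval of Hashtag2. Without thinning the stromal shares were 26.0% and 15.7%, against 1.44% to 12.96%. With at least 5 UMIs Hashtag2 was at 8.32%, inside the others' 0.885% to 9.13%. Thinned to 1500 UMIs it was at 6.34%, inside their 0.829% to 10.3%. Hashtag1 lay above the others at both settings, at 11.86% and 11.87%. Past-gate cells meeting the stromal minimum were 4.10% in Hashtag1, the highest of the 13, and 1.39% in Hashtag2, with a median of 0.894% over all 13, and without thinning they were 8.40% and 4.92%. The part of this background in the stromal shares was not tested. As a share of below-gate cells, stromal-gated cells were 25.7% and 24.5%, inside the others' 10.4% to 37.0%, whereas epithelial-gated cells were 39.4% and 44.5%, above the others' 4.65% to 16.4%. The 2 hashtags held 1056 of all 9507 thinned cells. Of all 101 endoderm-gated cells 0 belonged to the 2 hashtags, with an exact 95% upper limit of 3.59% (without thinning 3 of 121, upper limit 7.07%), while the class reached 6.09% of the cells of Hashtag12. The others' median was 0.432%, and Hashtag9 also had 0, of 424 cells, so a share of 0 was not particular to the 2 hashtags. Of 28 endothelial-gated cells 9 were theirs, and of 21 epicardial-gated cells 3. Of the 904 below-gate cells in no marker gate, 176 were theirs.

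In sums over below-gate cells the contractile content still differed: the 7 gate genes came to 2961 and 4305 CPM, against 5647, 10267 and 14673 CPM in the others. A smaller share of the below-gate cells of Hashtag1 and Hashtag2 lay near the gate, so these sums do not compare cells of equal contractile level, and the part of this in the calls below was not tested beyond the other gates tried. Of 9487 measured genes, 723 were above the range (7.62%) and 502 below (5.29%). Of 10 epithelial genes, 7 were above and 0 below, with a median log2 fold of 2.32 against 0.10 over all measured genes. These values include WFDC2 and CLDN4, markers on which the hashtags were noted. WFDC2 was at 294 and 321 CPM against 38.9, 60.0 and 163 CPM (5.13-fold). CLDN4 was at 96.9 and 163 CPM against 1.37, 11.04 and 41.8 CPM (11.8-fold). CDH1 was at 42.4 and 89.3 CPM against 2.73, 11.5 and 28.8 CPM. In each of the 3 genes both hashtags were the highest of the 13. After thinning, at least 1 CLDN4 UMI was found in 19.7% and 27.6% of below-gate cells, with the others at 0% to 8.46%, and in 0% and 0.279% of past-gate cells of the same hashtags. Without thinning these shares were 33.0% and 38.4% below the gate, with the others at 1.83% to 18.9%, and 1.53% and 1.81% past it. Median depth was 11107 and 11249 UMIs below the gate and 9955 and 10667 UMIs past it.

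**Figure D3:**
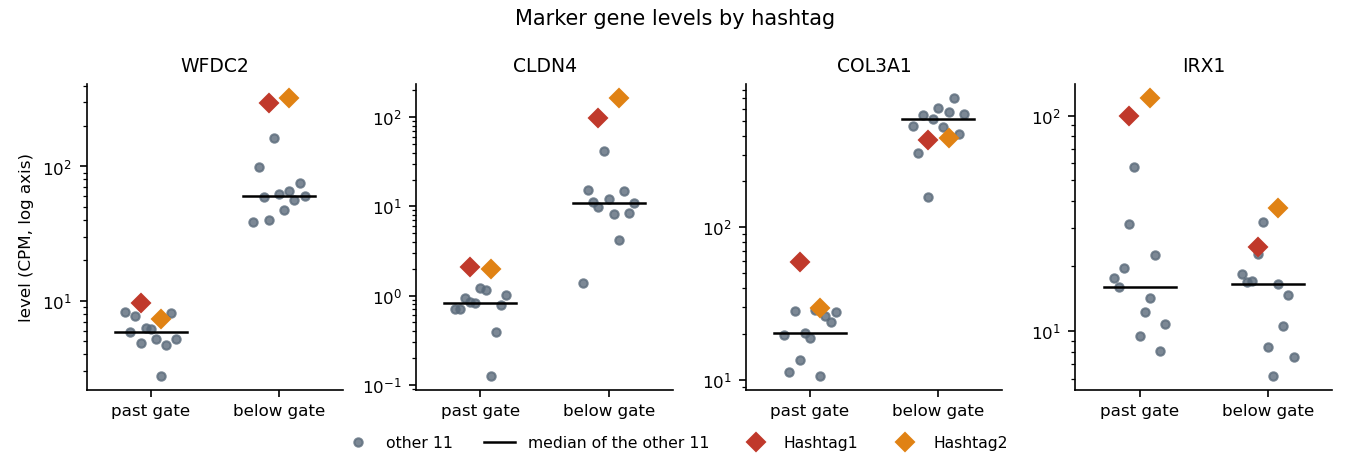
Level (CPM, log axis) of WFDC2, CLDN4, COL3A1 and IRX1 in cells past and below the gate, 1 point per hashtag, with diamonds for Hashtag1 and Hashtag2 and a line at the median of the other 11. WFDC2 and CLDN4 stand out below the gate, IRX1 past it at 99.9 and 120.2 CPM, and COL3A1 below the gate lies inside the range of the others.

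SOX2 was carried by the below-gate cells, at 98.8 and 90.5 CPM against 0, 4.23 and 8.30 CPM, and at 4.13 and 3.33 CPM past the gate. MIR205HG was at 151 and 189 CPM against 0.683, 6.64 and 30.3 CPM. Below the gate too, SOX2 and MIR205HG were measured only through Hashtag1 and Hashtag2, as the others' medians lay under 10 CPM. The claudin genes CLDN7 (95.6 and 135 CPM; highest other 59.5 CPM) and CLDN3 (37.6 and 77.2 CPM; highest other 23.1 CPM) were also above. MT1F, which encodes a metal-binding metallothionein, was at 80.3 and 152 CPM against 2.10, 15.5 and 35.1 CPM. Members of its family are close in sequence, so the split of UMIs between them is uncertain. Of 8 amnion or surface ectoderm genes, 2 were measured over all cells and both were above the range: TFAP2A, an AP-2 factor gene, at 20.3 and 15.8 CPM (highest other 8.995 CPM) and GABRP, a receptor subunit gene, at 20.7 and 13.1 CPM (highest other 11.7 CPM). Both genes were measured only through Hashtag1 and Hashtag2, as the others' medians lay under 10 CPM, so the count is partly built in. GABRP lost its call under both other hashtag rules. Below the gate 3 were measured and 1, the keratin gene KRT7, was above (16.6 and 13.5 CPM; others 0 to 4.19 CPM). KRT7 was likewise measured only through these hashtags. The list summed below the gate to 99.4 and 105 CPM, against 10.9, 31.7 and 115.07 CPM. Of the trophoblast and blood lists, 0 genes were measured.

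Of 9 measured stromal genes 8 were not called below the gate. COL3A1 was at 376 and 383 CPM against 158, 511 and 701 CPM. COL1A1, which encodes another fibrillar collagen, was at 113 and 86.0 CPM against 57.6, 232 and 357 CPM, and THY1, a surface protein gene of fibroblasts, at 14.7 and 13.3 CPM against 8.47, 30.6 and 75.1 CPM. FOXC1 was the one called (48.4 and 65.1 CPM; others 10.5, 17.1 and 33.8 CPM). NR2F2, a nuclear receptor gene of atrial muscle and of mesenchyme, was at 291 and 312 CPM against 29.3, 73.9 and 200.1 CPM, and ISL1, a LIM-homeodomain gene of second heart field progenitors, at 108 and 96.1 CPM against 15.9, 28.5 and 70.04 CPM. Both lay above the range in both hashtags.

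Of 6 measured endoderm genes, 2 were below the range below the gate and 0 above. APOA1, the main apolipoprotein of high density lipoprotein, was at 17.8 and 15.9 CPM against 31.0, 413 and 2818 CPM, 24.5-fold lower. AFP, the fetal serum protein gene, was at 8.92 and 9.79 CPM against 10.3, 605 and 3407 CPM, and SERPINA1, the alpha-1 antitrypsin gene, which is in no list, at 7.33 and 12.1 CPM against 31.0, 899 and 4802 CPM. The other hashtags spread over more than 2 orders of magnitude in AFP and SERPINA1, and their lowest members were close to Hashtag1 and Hashtag2. With a hashtag share of 90% and 50 hashtag UMIs neither AFP nor SERPINA1 was called, and the log2 fold of AFP was 0.10. AFP also lost its call without barcodes marked as doublets and at a gate of 10000 CPM. The smallest other hashtag kept 8 below-gate cells at the share of 90% and 12 at the gate of 10000 CPM.

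Contractile transcripts were low in the below-gate cells as well. TNNT2 was at 700.4 and 1051 CPM against 1512, 3083 and 4348 CPM, and TNNI1, the slow skeletal troponin I gene used by the fetal heart, at 575 and 845 CPM against 1641, 3098 and 4641 CPM (4.36-fold lower). Counts below the range were 6 of 7 gate genes, 6 of 9 other cardiomyocyte genes and 8 of 11 sarcomere genes, with 0 above in these 3 lists. These calls depended on the gate and the hashtag rule: at 10000 CPM, 0 of the gate genes were called, and at a hashtag share of 90% and 50 hashtag UMIs, 0 of the sarcomere genes and 2 of the other cardiomyocyte genes. PLN, which restrains the calcium pump (82.8 and 145 CPM; lowest other 178 CPM), GATA4 (15.6 and 22.2 CPM; lowest other 51.3 CPM) and TNNI1 were called at all 24 settings tried. Many of those settings leave out hashtags, which can only loosen the range condition.

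Some genes of dividing cells were above the range below the gate. CENPF, a kinetochore gene, was at 405 and 478 CPM against 92.6, 181 and 299.7 CPM (2.43-fold), and MKI67, a marker of cycling cells, at 142 and 159 CPM against 20.8, 64.2 and 120.3 CPM (2.34-fold). Of 20 genes of the G2M list, 6 were above the range, 14 were not called and 0 were below. At a gate of 10000 CPM the 6 became 3, and MKI67 lost its call. In the S phase list, 9 of 18 were above and 0 below, including RRM2, which supplies deoxynucleotides (58.6 and 37.5 CPM; others 6.93, 13.7 and 33.2 CPM), and MCM2, of the replicative helicase (34.7 and 31.5 CPM; others 6.29 to 28.2 CPM). At a gate of 30000 CPM the 9 became 2, and RRM2 and MCM2 were not called; RRM2 also lost its call at 10000 CPM. Thinned below-gate cells with at least 3 G2M genes were 39.4% (33.2% to 45.7%) and 33.4%, against 7.77%, 20.0% and 34.7% of the others. Hashtag2 was inside that range and Hashtag1 above it, but with a minimum of 5 genes both were inside, at 28.1% and 26.7% against a highest other of 29.2%. Without thinning the shares were 49.5% and 47.7% against 18.3% to 48.8%. Past the gate the same share was 10.7% and 6.41%, against 7.12%, 9.06% and 21.4%, and 0 of 18 measured G2M genes were above the range; without thinning it was 18.3% and 17.1% against 15.5% to 42.9%.

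Did the contractile cells themselves differ? Past the gate, 8667 genes were measured, of which 285 were above the range (3.29%) and 119 below (1.37%), and the TMM factors gave 186 and 206. These sums rest on 1451132 UMIs in Hashtag1 and 4499359 in Hashtag2, against 5074092 to 14568334 in the others, so Hashtag1 is the least precise. The gate selects cells by 7 contractile genes, so near-equal levels of these are built in: 0 of 7 were called, and TNNT2 was at 7343 and 7915 CPM against 7155, 7833 and 8734 CPM. Of 11 sarcomere genes, some of them also gate genes, 0 were called. In the cardiac subtype lists, 0 of 6 ventricular genes were called, 2 of 4 atrial genes lay below and 1 of 3 pacemaker genes above. Those below were HEY1 (log2 fold -0.70) and TBX5 (-1.09), and the one above was ISL1 (1.405). HEY1 lost its call without Hashtag1 and at a hashtag share of 50% and 10 hashtag UMIs, and ISL1 at a gate of 30000 CPM. Of the genes that tell chamber types apart, HEY2, a ventricular repressor (125 and 159.8 CPM; others 52.8, 158 and 205 CPM), MYL2, the ventricular light chain (8.27 and 15.1 CPM; others 5.94 to 50.5 CPM), MYH6 (4687 and 4619 CPM; others 3069.8 to 5500.3 CPM) and MYH7 (427 and 342 CPM; others 126 to 1022 CPM), the 2 cardiac myosin heavy chains, were within the range. So were NKX2-5 (526 and 625 CPM; others 405 to 819 CPM), NPPA (286 and 309 CPM; others 84.4 to 1589 CPM) and NR2F2 (28.9 and 15.8 CPM; others 5.43 to 348 CPM). SHOX2, a sinus node factor, was at 0 and 0.667 CPM, under the level that 3 UMIs give in Hashtag1 (2.07 CPM), against 0.126 to 39.0 CPM.

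In the Iroquois list 3 of 5 measured members were above the range in the contractile cells, with a median log2 fold of 1.79 against 0.07 over all measured genes. IRX1 (chr5, 3596054 to 3601403, GRCh38) was at 99.9 CPM in Hashtag1 and 120.2 CPM in Hashtag2 against 8.08, 16.1 and 57.9 CPM, 6.84-fold above the median. IRX1 was among the genes on which the hashtags were noted, so its levels and its part in the list values are a description only. IRX2 (chr5, 2745845 to 2751662) was at 162 and 142 CPM against 21.7, 44.1 and 129 CPM, 3.45-fold above the median. Hashtag1 and Hashtag2 were the highest of the 13 for these neighbouring genes, and Hashtag7 came next in both. IRX5 (chr16, 54930862 to 54934485) was low but also above, at 17.2 and 14.4 CPM against 1.58, 2.72 and 8.17 CPM. It was measured only through Hashtag1 and Hashtag2, since all others lay under the 10 CPM minimum. Of the remaining measured members, IRX2 was above the range and IRX3 and IRX4 were not.

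IRX4, the ventricular member, which lies in the cluster of IRX1 and IRX2, was not above the range: 94.4 and 107 CPM against 42.1, 111 and 120.1 CPM. IRX3 was at 55.8 and 62.7 CPM against 14.5, 23.4 and 69.4 CPM, and Hashtag7 exceeded both. C5orf38, a gene beside IRX2 that was chosen after its values were seen, was at 121 and 130.0 CPM against 20.0, 40.5 and 85.7 CPM. After thinning, 32.0% and 30.9% of past-gate cells held an IRX1 UMI, against 1.54%, 4.51% and 16.5% of the others and 6.83% and 10.1% of their own below-gate cells. Without thinning the past-gate shares were 42.0% and 56.0%, against 4.93% to 35.4%. In below-gate cells of the same hashtags IRX1 was lower, at 24.5 and 37.1 CPM against 6.20, 16.6 and 32.0 CPM, and was not called. In these hashtags IRX1 was thus higher past the gate than below it. The calls of IRX1, IRX2 and IRX5 held in all 24 alternative settings. Many of these leave out hashtags, which can only loosen the range condition.

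**Figure D4:**
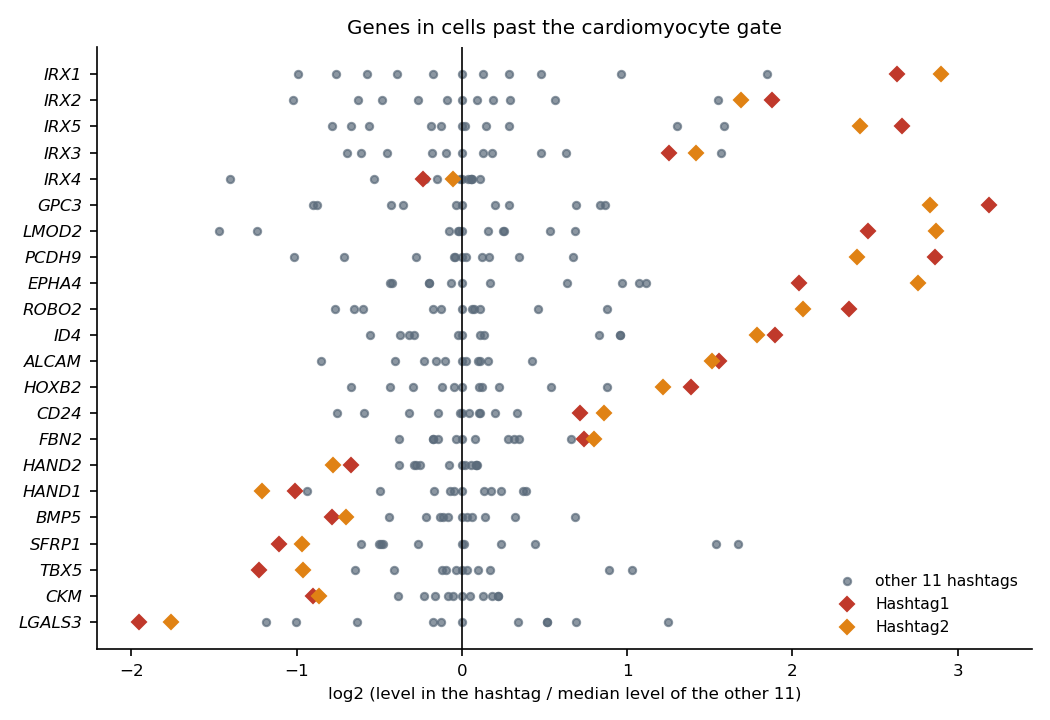
Log2 of the level in each hashtag over the median of the other 11 (x axis) for 22 genes in cells past the gate, 1 point per hashtag with diamonds for Hashtag1 and Hashtag2. IRX1, IRX2 and IRX5 lie to the right of every other hashtag, IRX3 and IRX4 do not, and HAND2 and LGALS3 lie to the left.

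Several genes outside the lists were also high in the contractile cells. LMOD2, the leiomodin that lengthens thin filaments in heart muscle, was at 169.5 and 225 CPM against 11.1, 30.8 and 49.6 CPM, 6.41-fold above the median. A UMI of LMOD2 was found in 26.2% and 28.97% of thinned past-gate cells, against 2.40% to 9.97% of the others, and in 0.402% and 2.76% of below-gate cells. Without thinning the past-gate shares were 43.5% and 42.7%, against 5.28% to 19.1%. GPC3, a cell surface proteoglycan gene, was at 186 and 145 CPM against 10.9, 20.3 and 37.1 CPM. GPC3 was higher still in the below-gate cells of the same hashtags (915 and 934 CPM; others 237 to 1715 CPM), and what part of its past-gate level came from those cells' RNA was not tested.

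Other genes named by the same rule came from outside the lists or from lists with 1 or 2 members above the range. EPHA4, an ephrin receptor, was at 77.9 and 129 CPM against 14.0, 19.0 and 41.0 CPM. ROBO2, a Slit receptor, was at 62.7 and 51.8 CPM against 7.28, 12.4 and 22.8 CPM, and SEMA3A, a secreted semaphorin, at 56.5 and 45.8 CPM against 10.7, 14.3 and 31.9 CPM. The adhesion genes PCDH9 (85.5 and 61.6 CPM; highest other 18.7 CPM) and ALCAM (116 and 112 CPM; highest other 52.7 CPM) were above as well. EPHA4 and ROBO2 were lower in the below-gate cells of these hashtags, at 15.9 and 24.0 CPM for EPHA4 and 10.8 and 18.7 CPM for ROBO2. ID4, an inhibitor of helix-loop-helix factors, was at 332 and 308 CPM against 60.6, 89.1 and 173 CPM, and HOXB2, a homeobox gene of the HOXB cluster, at 65.5 and 58.2 CPM against 15.7, 25.1 and 46.1 CPM. The surface marker CD24 (205 and 227 CPM; others 73.8, 125 and 157 CPM), the microfibril gene FBN2 (591 and 615 CPM; others 271, 353 and 559.5 CPM) and the potassium channel gene KCNJ3 (10.3 and 11.6 CPM; highest other 9.66 CPM) were nearer to the rest. KCNJ3 was measured only through Hashtag1 and Hashtag2, since all others lay under the 10 CPM minimum. EPHA4, ROBO2, SEMA3A, PCDH9, ALCAM, ID4, HOXB2, CD24, FBN2 and KCNJ3 were called at all 24 settings, with the same limit on settings that leave out hashtags.

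Genes below the range past the gate included cardiac regulators. HAND2, a helix-loop-helix factor of the heart, was at 144 and 134 CPM against 176, 229 and 244 CPM, 1.65-fold lower. HAND1, its paralogue, was at 65.5 and 57.1 CPM against 69.0, 132 and 173 CPM, and TBX5 at 30.3 and 36.4 CPM against 45.5, 71.1 and 145 CPM; each lost its call at 2 or more settings, among them the gate at 30000 CPM. CKM was at 122 and 125 CPM against 174, 228 and 265 CPM, 1.84-fold lower. LGALS3, which encodes the lectin galectin-3, was at 37.9 and 43.3 CPM against 64.6, 147 and 348 CPM, 3.61-fold lower. FITM1, of lipid droplet formation in muscle, was at 101 and 114 CPM against 136, 227 and 256 CPM. HAND2, CKM, LGALS3 and FITM1 kept their calls at all 24 settings, with the same limit on settings that leave out hashtags.

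Past the gate, 3 of 14 measured genes of the signalling list lay below the range and 11 were not called. In the endothelial list only KDR of 8 genes was measured, and it lay below. Over all measured genes 1.37% lay below the range. SFRP1, a secreted WNT modulator, was at 133 and 146 CPM against 187, 286 and 909.7 CPM. BMP5, a bone morphogenetic protein, was at 109.6 and 116 CPM against 139, 189 and 304 CPM. KDR, a VEGF receptor, was at 10.3 and 14.2 CPM against 15.1, 27.4 and 69.8 CPM. These 3 calls were lost when a hashtag share of 50% and 10 hashtag UMIs sufficed. Of the glycolysis and hypoxia list 0 of 15 were called, of oxidative metabolism 0 of 10, of stress and immediate early genes 0 of 13, of depolarising channels 0 of 6 and of junction genes 0 of 8. HCN4 was at 31.7 and 42.2 CPM against 40.4, 64.5 and 140.3 CPM and was not called.

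Markers of other cells in the past-gate cells were low, but not in every case inside the range. COL3A1 was at 59.3 and 29.6 CPM against 10.6, 20.1 and 28.7 CPM, and LUM, another matrix gene, at 15.8 and 6.89 CPM against 0.552, 1.97 and 3.80 CPM. LUM was measured only through Hashtag1 and Hashtag2, since all others lay under the 10 CPM minimum. COL3A1 lost its call without Hashtag1, without barcodes marked as doublets and under 3 other settings, and LUM likewise lost its call without Hashtag1, without those barcodes and under 3 others. WFDC2 was at 9.65 and 7.33 CPM against 2.78, 5.91 and 8.30 CPM, and CLDN4 at 2.07 and 2.00 CPM, where the highest other was 1.23 CPM. The stromal list summed to 149 and 84.2 CPM against 44.5 to 93.5 CPM and the epithelial list to 247 and 268 CPM against 305 to 491 CPM, in which CLDN6 (119.9 and 108 CPM) and KRT19 (83.4 and 132 CPM) held the largest parts. What part these traces had in the other past-gate calls was not tested.

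**Figure D5:**
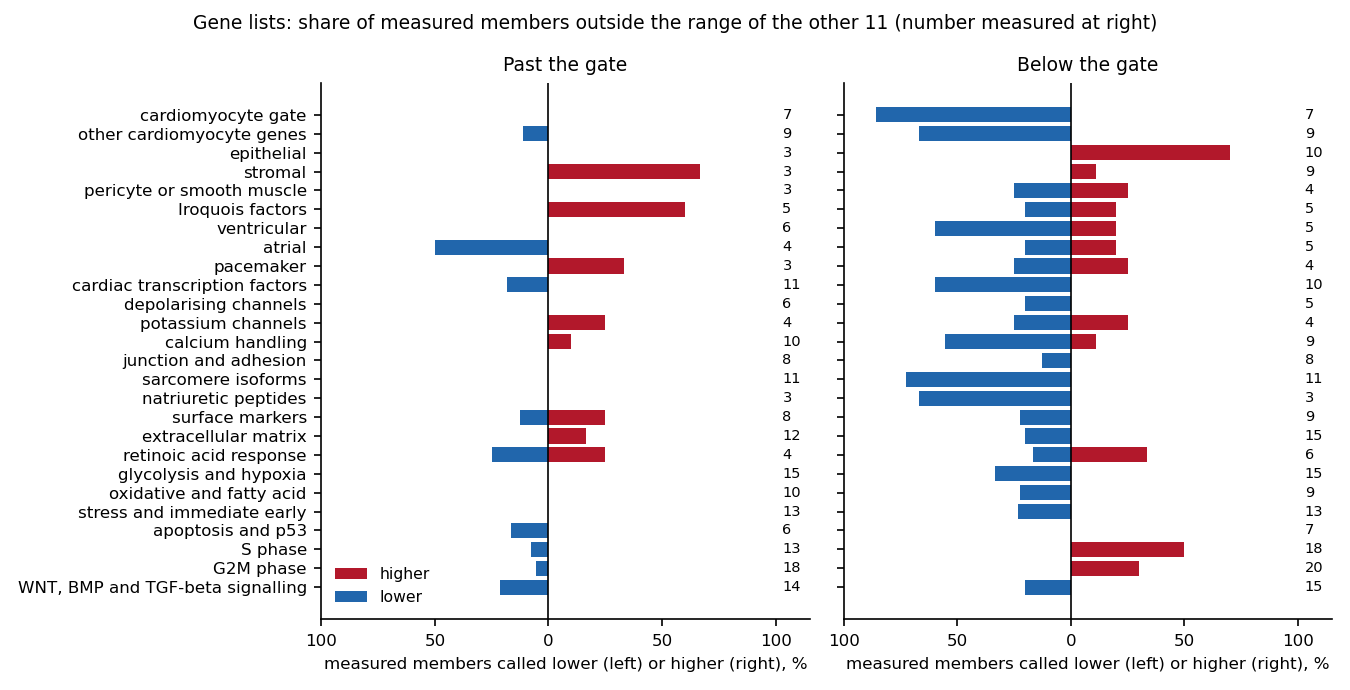
Percent of the measured members of each gene list (x axis) called above the range of the other 11 hashtags (right of zero) or below it (left), in cells past and below the gate, with the number measured at the right. Past the gate, Iroquois factors stand at 3 of 5 above, and below it the epithelial list stands at 7 of 10 above and the sarcomere list at 8 of 11 below. The Iroquois count includes IRX1, and the epithelial count WFDC2 and CLDN4, which are markers on which the hashtags were noted.

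Above the range in both sets were 36 genes, which is 12.6% of the calls past the gate and 4.98% of those below it. Over all measured genes the shares above the range were 7.62% below the gate and 3.29% past it. Below the range in both were also 36, which is 30.3% and 7.17%, against 5.29% and 1.37% of all measured genes. In opposite directions there were 8 genes above past the gate and below the range below it, and 3 of the reverse. The 8 are 2.81% and 1.59% of those calls, against 5.29% and 3.29% of all measured genes. The 3 are 2.52% and 0.415%, against 7.62% and 1.37%.

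How alike were Hashtag1 and Hashtag2? Over all cells, 38 genes were higher in Hashtag1 and 80 in Hashtag2 with the whole 95% counting interval of their ratio beyond 1.5-fold. Past the gate these were 10 and 21 genes, and below it 29 and 76. The examples that follow were chosen after their values were seen. DLK1, an imprinted gene of fetal progenitors, was at 77.2 CPM in past-gate cells of Hashtag1 and 5.56 CPM in Hashtag2, a ratio of 13.9 (8.94 to 22.4), with the others at 3.302 to 27.9 CPM. PLN was lower in Hashtag1 (954 CPM) than in Hashtag2 (1619 CPM). Below the gate MACC1, a gene linked to epithelial motility, was at 15.6 and 64.4 CPM, and CLSPN, a replication checkpoint gene, at 77.1 and 33.8 CPM.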

How the data were processed

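The authors deposited counts of unique molecular identifiers per barcode for genes and for 13 hashtags of 1 pooled 10x Genomics capture, made with Cell Ranger 4.0.0 per the file headers and on hg38 per the submitters' processing notes. The sources used here do not give the annotation release, the use of strand or the library chemistry. The matrix held 24038 barcodes and 36601 genes, with 311110726 gene and 9911316 hashtag UMIs. Barcodes under 500 genes, under 1000 UMIs or over 25% mitochondrial UMIs were dropped (2415 in all) and the others kept and given to hashtags as described. UMIs were summed per hashtag and cell set and divided by their total (CPM). Intervals are exact 95% intervals, binomial for shares and conditional binomial for ratios of counts; they and the floor of 3 counts cover counting error only. A fold is the mean of Hashtag1 and Hashtag2 over the median of the other 11 hashtags, and a measured gene also needed 10 UMIs in all.

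The labels do not map hashtags to conditions, so each hashtag is an unassigned sample, no group test was made, and differences are given against the range of the other 11. Whether hashtags are separate differentiations is not given. The hashtags, the 13 marker lists and 22 other lists (359 genes, 0 absent from the matrix) were chosen with earlier results of these data known. Named genes were the 4 markers and 10 fixed genes, up to 4 called genes per list by fold, and the 8 called genes per direction outside the lists with the largest fold at 50 CPM or more; others are stated to be chosen after their values were seen. Scrublet (scanpy 1.11.5; 0.8% doublets expected per 1000 barcodes, 17.3% in all) marked 2314 barcodes (10.7%), among them 5.71% of the Hashtag1 and Hashtag2 cells and 8.13% of the other cells; they were kept except in 1 alternative. Free RNA was not corrected. Gene positions are from GENCODE 29 (GRCh38) by gene identifier, and 10 symbols occur more than once. Alternatives were other cell filters, hashtag rules, gates, TMM scaling (edgeR 4.0.16, R 4.3.3), no CPM minimum, pooled folds, hashtags left out, and other depths and minimums for cell shares. Scripts used Python 3.11.15, numpy 2.4.6, scipy 1.17.1, pandas 2.3.3 and matplotlib 3.10.9, and were tested on simulated data.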

Additional observations from a re-analysis of the deposited data

Results flagged for a closer look

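In 11 genes Hashtag1 and Hashtag2 lay above the range of the other 11 hashtags on one side of the cardiomyocyte gate and below it on the other, and the 8 with a level of 50 CPM or more in either cell set are given here, chosen after their values were seen. Genes called in opposite directions were at most 2.81% of the calls of a direction in either cell set. Over all measured genes 1.37% to 7.62% were called. The difference between the cell sets was not tested, and folds are against the median of the other hashtags. PRDX1, a peroxiredoxin gene, was at 2153 and 2414 CPM past the gate (others 605 to 1701 CPM) and at 606 and 611 CPM below it (others 694 to 2163 CPM), folds of 2.79 and 0.614. PDLIM3, a Z-disc protein gene, had folds of 2.03 past the gate and 0.233 below it, and TRDN, which anchors the calcium release complex, 1.51 and 0.307. C7, a complement gene, was at 71.0 and 89.6 CPM past the gate (others 20.2 to 59.6 CPM) and at 20.7 and 18.2 CPM below it (others 42.8 to 155 CPM), folds of 2.53 and 0.207. SVIL, a membrane-actin linker gene, had folds of 1.501 and 0.501, TSPAN15, a tetraspanin gene, 2.04 and 0.520, and the kinase gene NEK7 1.55 and 0.657. TKT, of the pentose phosphate pathway, was the reverse, at 19.3 and 27.1 CPM past the gate (others 33.3 to 51.9 CPM) and at 230.4 and 221 CPM below it (others 85.8 to 179.8 CPM), folds of 0.573 and 1.76. The folds of NEK7, TRDN and SVIL past the gate lie near the threshold of 1.5.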

How the results depend on the processing

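Counts of genes are given as above and below the range. At a hashtag share of 90% and 50 hashtag UMIs, 582 and 282 genes were called past the gate and 169 lay below the range in below-gate cells, and 25.68% of Hashtag1 passed the gate. That rule left 74 cells of Hashtag1 and 150 of Hashtag2, of which 19 and 70 were past the gate. The smallest other hashtag kept 42 cells, and the fewest below-gate cells in another hashtag were 8. At 50% and 10 hashtag UMIs, 71 genes lay below the range past the gate. With the gate at 10000 CPM, 343 and 275 genes were called below the gate, and 60.19% of Hashtag2 and a median of 92.70% of the others passed. The fewest below-gate cells in another hashtag were then 12. At 30000 CPM, 1151 genes were above the range below the gate, and 23.27%, 35.02% and 54.97% passed. TMM scaling gave 557 and 698 over all cells and 186 and 206 past the gate; it moved the median log2 fold past the gate from 0.07 to -0.04. Without the CPM minimum, the calls were 2116 and 584 over all cells and 797 and 264 past the gate. Leaving out each hashtag gave 896 to 1578 and 289 to 827 over all cells, 278 to 723 and 116 to 439 past the gate, and 690 to 1100 and 491 to 896 below it, with all 6 of the highest values without Hashtag2, and a median share past the gate of 82.94% to 83.73% in the others. Without Hashtag14 and Hashtag15, whose cells are the shallowest, an alternative added after seeing the data, that median was 82.30% and the counts were 1057 and 400 over all cells, 367 and 131 past the gate, and 809 and 545 below it.

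Marker gates moved with depth and minimum. Without thinning, with at least 5 UMIs, and thinned to 1500 UMIs, the epithelial gate held 29.70%, 21.02% and 16.67% of Hashtag1 and 24.63%, 19.42% and 15.45% of Hashtag2, and without thinning 6.023% of the others. The stromal gate held 25.99%, 11.86% and 11.87% of Hashtag1 and 15.71%, 8.321% and 6.345% of Hashtag2. The highest other hashtag was at 12.96%, 9.13% and 10.27%, so Hashtag2 lay inside the range of the others in the last 2. Cells with G2M genes past the gate were 18.32%, 17.10% and 20.95% of Hashtag1, Hashtag2 and the others without thinning, 6.557% of Hashtag1 with at least 5 genes, and 13.79% of the others with at least 2. Below the gate they were 49.45%, 47.67% and 29.41% without thinning, 47.79% and 41.10% of Hashtag1 and Hashtag2 with at least 2 genes, and 28.11% of Hashtag1 with at least 5.

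Of 88 named genes called over all cells, 65 were called in all 22 alternatives, of 44 past the gate 23 in all 24, and of 96 below it 19 in all 24. Leaving out hashtags can only loosen the range condition, so a call could be lost there only through its fold or the minimum level. Dropping the CPM minimum could not remove a call. A change of direction was counted only for genes called at the main settings, so changes in other named genes are not included. Among 5994 values of named genes, called or not, 4 were so counted, all below the gate. At a share of 90%, AFP moved to a log2 fold of 0.099 and KCNJ2 to -0.57. At 10000 CPM, MYL3 moved to 0.013 and SMYD1 to 0.074. The causes were not tested. No paired analysis was possible because the hashtags carry no replicate numbers and belong to no labelled groups.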

Other observations

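The epithelial-gated and stromal-gated cells of Hashtag1 and Hashtag2 were set beside the cells of the other 11 hashtags in the same gates, a comparison added after seeing the data, with genes chosen after their values were seen. Levels are given for Hashtag1, Hashtag2 and the other hashtags pooled, and ratios of pooled UMIs have intervals for counting error only. There were 98, 145 and 192 epithelial-gated cells. SOX2 was at 175, 151 and 14.6 CPM, a ratio of 10.9 (8.01 to 15.3). MIR205HG was at 341, 389.8 and 52.1 CPM, and NR2F2 at 521, 569.6 and 114 CPM. CLDN4 was at 227, 343 and 75.3 CPM and WFDC2 at 651, 676 and 327 CPM; both belong to the list that gates these cells and to the markers on which the hashtags were noted, so they are levels only. The metallothionein gene MT2A was at 2243, 4558 and 481 CPM, and its split from close relatives is uncertain. TNNI1 was lower at 279, 488 and 3205 CPM, as was the small heat shock gene CRYAB at 10.2, 14.0 and 259.6 CPM. Cells of the same gate thus held different transcript levels. In the other hashtags the gate took 4.65% to 16.4% of below-gate cells, while 5.96% to 14.4% of past-gate cells met its minimum. In Hashtag1 these shares were 39.4% and 0.820%, and in Hashtag2 44.5% and 5.29%. Whether the gate held the same kind of cell on both sides was not tested, nor was the part of doublets and free RNA.

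Stromal-gated cells numbered 64, 80 and 462. TAGLN, an actin-binding protein gene of smooth muscle, was at 251, 247 and 1414 CPM, 5.69-fold lower (5.16 to 6.28), and the smooth muscle actin gene ACTA2 at 243, 177 and 1035 CPM, 5.05-fold lower (4.54 to 5.64). TCF21, an epicardial and fibroblast transcription factor gene, was at 12.4, 27.7 and 120.2 CPM. COL1A1 was at 308, 209.9 and 664 CPM, and COL3A1, a gating gene, at 1108, 1113 and 1459 CPM. Higher were FOXC1, also a gating gene, at 102.98, 136 and 47.8 CPM, ISL1 at 159, 149 and 54.9 CPM, PRRX2, a mesenchymal homeobox gene, at 108, 61.4 and 15.4 CPM, and TOP2A, a gene of dividing cells, at 331, 444 and 94.7 CPM, a ratio of 4.18 (3.73 to 4.69).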
